A study of Homo sapiens with 12 samples.

Results

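The mRNAs described here encode 9 enzymes and enzyme subunits of the methionine cycle, transsulfuration and cysteine breakdown, namely CBS, CTH, MAT2A, MAT2B, AHCY, MTR, MPST, ETHE1 and CDO1. They were taken as the rows with these symbols in tables of 55765 gene symbols, and all 9 were listed. RNA was sequenced from Hs 578T cells, a triple-negative breast cancer line that the study places in the mesenchymal stem-like, claudin-low class, after lentiviral transduction for GFP or for full-length NRF2, the transcription factor encoded by NFE2L2. Both cell populations were kept for 8 h with 0.8 mM L-cystine (Cyss) or without Cyss, which gave 4 groups of 3 libraries: GFP with Cyss, GFP without Cyss, NRF2 with Cyss and NRF2 without Cyss. All 4 groups received 0.2 mM L-methionine and 10% fetal bovine serum, so the starting material of transsulfuration was present throughout. Everything comes from 1 cell line, and nothing in the labels says that the 3 libraries of a group came from separate cultures, so the p-values measure only the spread between these libraries, which may be technical.

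Methionine is activated to S-adenosylmethionine, gives up its methyl group, and returns as homocysteine, which can be methylated back to methionine. Homocysteine can also leave this cycle by transsulfuration, in which its sulfur is moved onto serine to make cysteine, a route that lets a cell form cysteine without importing Cyss. Cysteine in turn is oxidised towards taurine and sulfate, or gives up its sulfur as hydrogen sulfide and persulfides. The question put to these mRNAs was whether the genes of the route from methionine to cysteine rose when imported Cyss was missing, and whether exogenous NRF2 changed that. In the paper, a shortened form of NRF2 withstood Cyss deprivation as protein, whereas the full-length form used here did not. Comparisons without Cyss are therefore not a test of NRF2 protein held at a steady level.

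CBS and CTH, the pair of enzymes that make up transsulfuration, were higher without Cyss in every library of both cell populations. CBS rose 1.81-fold in GFP cells and 1.68-fold in NRF2 cells, and CTH rose 1.83-fold and 1.54-fold. None of the 4 tested genes of the methionine cycle, MAT2A, MAT2B, AHCY and MTR, passed the fold change threshold. MPST and ETHE1, which act on sulfur released from cysteine, did not pass it either. The lack of calls among so few genes is near the shares of all genes called for Cyss deprivation. Those shares were 1.57% higher and 0.533% lower in GFP cells, and 6.81% and 5.14% in NRF2 cells. CDO1, the dioxygenase that starts the oxidation of cysteine, had 12 reads in all 12 libraries together. No member was called between NRF2 and GFP cells in either medium, beside 1.56% of all genes with Cyss and 10.1% without.

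The promoters of the pair that rose are shown because both changed together. CTH has 1 start site in the reference used and CBS has 3, of which the one shown is the only one with a match. Each is a window of 300 bases, most of them before a RefSeq start site on GRCh38.p14, read 5′ to 3′ on the strand of the gene. CBS lies on the minus strand of chromosome 21 and CTH on the plus strand of chromosome 1. Capitals mark the letters TGACNNNGC on either strand, the core of the antioxidant response element that NRF2 binds.
CBS chr21:43076328-43076627: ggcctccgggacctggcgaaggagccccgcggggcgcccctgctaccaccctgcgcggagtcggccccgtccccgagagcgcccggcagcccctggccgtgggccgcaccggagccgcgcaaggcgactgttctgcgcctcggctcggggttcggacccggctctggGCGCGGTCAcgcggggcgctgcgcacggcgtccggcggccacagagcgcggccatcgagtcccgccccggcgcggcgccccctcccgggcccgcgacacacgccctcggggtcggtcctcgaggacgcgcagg
CTH chr1:70411018-70411317: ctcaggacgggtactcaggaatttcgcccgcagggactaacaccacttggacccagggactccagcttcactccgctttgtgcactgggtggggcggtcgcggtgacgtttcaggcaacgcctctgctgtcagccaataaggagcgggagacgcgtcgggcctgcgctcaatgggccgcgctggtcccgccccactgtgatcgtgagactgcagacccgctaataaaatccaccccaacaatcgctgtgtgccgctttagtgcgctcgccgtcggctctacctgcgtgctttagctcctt

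The match in CBS was the reverse complement, GCNNNGTCA, and began 83 bases before the start site, at position -83. Among the 8 members with an entry, ETHE1 held the only other match, at position 6. These 2 of 8 members compare with 16.1% of the 27305 genes in the whole reference table, and their 2 of 14 promoters with 13.3% of its 35116 promoters. The letters TGATGNAA, the core of the C/EBP-ATF response element at which ATF4 acts, were found on neither strand in any of the 14 promoters of these 8 members and in 3.62% of all promoters. No window of a member held both patterns, so none overlapped. MPST was not analysed here for promoter letters, and a match or its lack in such a window is a description only.

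The 12 libraries held between 27250993 and 44596870 reads on genes (median 32857536). Values below are normalized counts, that is reads on a gene scaled by TMM factors to a common library size, and log2FC is the fitted log2 fold change between groups of 3 libraries. A gene was called where edgeR's quasi-likelihood test gave a Benjamini-Hochberg adjusted p under 0.1 over all genes tested and a log2FC above 0.32 in size. NFE2L2 had 3647 to 4655 normalized counts in the 6 GFP libraries and 6598 to 8396 in the 6 NRF2 libraries, the order the labels call for, although reads of the transgene and of the cell's own gene cannot be told apart. The labels call Hs 578T an epithelial tumour line. All 5 mesenchymal markers examined were high, VIM for example with 143000 to 168000 normalized counts. Of the epithelial junction markers, EPCAM had at most 1.03, CLDN7 at most 2.62 and CLDN3 at most 3.29. CLDN4 had 7.31 to 22, CDH1 at most 13.8 and OCLN at most 10.6, so the junction markers were low but not all near 0. Summed over each list, the 6 junction markers had 23.7 to 43.3 normalized counts per library, the 4 leukocyte markers 38.3 to 82.0 with CD3E at 0 throughout, and the 2 endothelial markers with values 2.62 to 7.69. Of the receptors, ESR1 had at most 13.2, PGR at most 25.6 and ERBB2 1150 to 1380. Replicate 3 of GFP without Cyss stood apart from its group on the first principal component, at 4.49 against -6.31 and -4.11, and the values of CBS and CTH that use it are given without it below. By chi-square per degree of freedom of their counts, the most unlike pair was replicates 1 and 3 of NRF2 without Cyss, at 13. Leaving out any 1 library gave log2FCs without against with Cyss in NRF2 cells of 0.70 to 0.79 for CBS and 0.57 to 0.65 for CTH.

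CBS, on chromosome 21 (44473301 to 44497053, minus strand, GRCh37), encodes cystathionine beta-synthase, which joins homocysteine and serine. In GFP cells the values were 1284, 1292 and 1220 normalized counts with Cyss, and without Cyss 2236, 2273 and 2357. In NRF2 cells the values were 1394, 1298 and 1411 with Cyss and 2260, 2184 and 2460 without. The lowest library without Cyss was thus well above the highest library with Cyss, and the 2 groups without Cyss lay in the same range. In bulk libraries such as these, a larger share of cells with the mRNA and more of it per cell cannot be told apart. The log2FC was 0.85 (SE 0.0447, 95% interval 0.76 to 0.95) in GFP cells, with an adjusted p of 6.32e-08 by edgeR's quasi-likelihood test, and 0.75 (SE 0.0569, interval 0.63 to 0.87) in NRF2 cells, with an adjusted p of 2.39e-07. Ranked by log2FC from the top, CBS stood at place 107 of 17452 genes tested in GFP cells and at place 407 of 17266 in NRF2 cells. Without replicate 3 of GFP without Cyss, the log2FC of CBS in GFP cells was 0.83.

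CTH, on chromosome 1 (70876901 to 70905534, plus strand, GRCh37), encodes cystathionine gamma-lyase, which splits cystathionine to release cysteine and can also form hydrogen sulfide. GFP cells had 158.7, 158 and 173.1 normalized counts with Cyss and 292.1, 270.1 and 333 without. NRF2 cells had 174.3, 157.4 and 169.9 with Cyss and 248.8, 276.3 and 246.3 without. As for CBS, the groups with and without Cyss did not overlap, while the NRF2 and GFP libraries without Cyss did, through 1 library at 276.3 against 270.1. The log2FC was 0.87 (SE 0.0923, interval 0.67 to 1.07) in GFP cells, with an adjusted p of 8.26e-05 by edgeR's test, and 0.62 (SE 0.0940, interval 0.42 to 0.82) in NRF2 cells, with an adjusted p of 2.33e-04. Without replicate 3 of GFP without Cyss, the highest CTH library of all, the log2FC in GFP cells was 0.79 (adjusted p = 2.73e-04, edgeR).

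**Figure D1:**
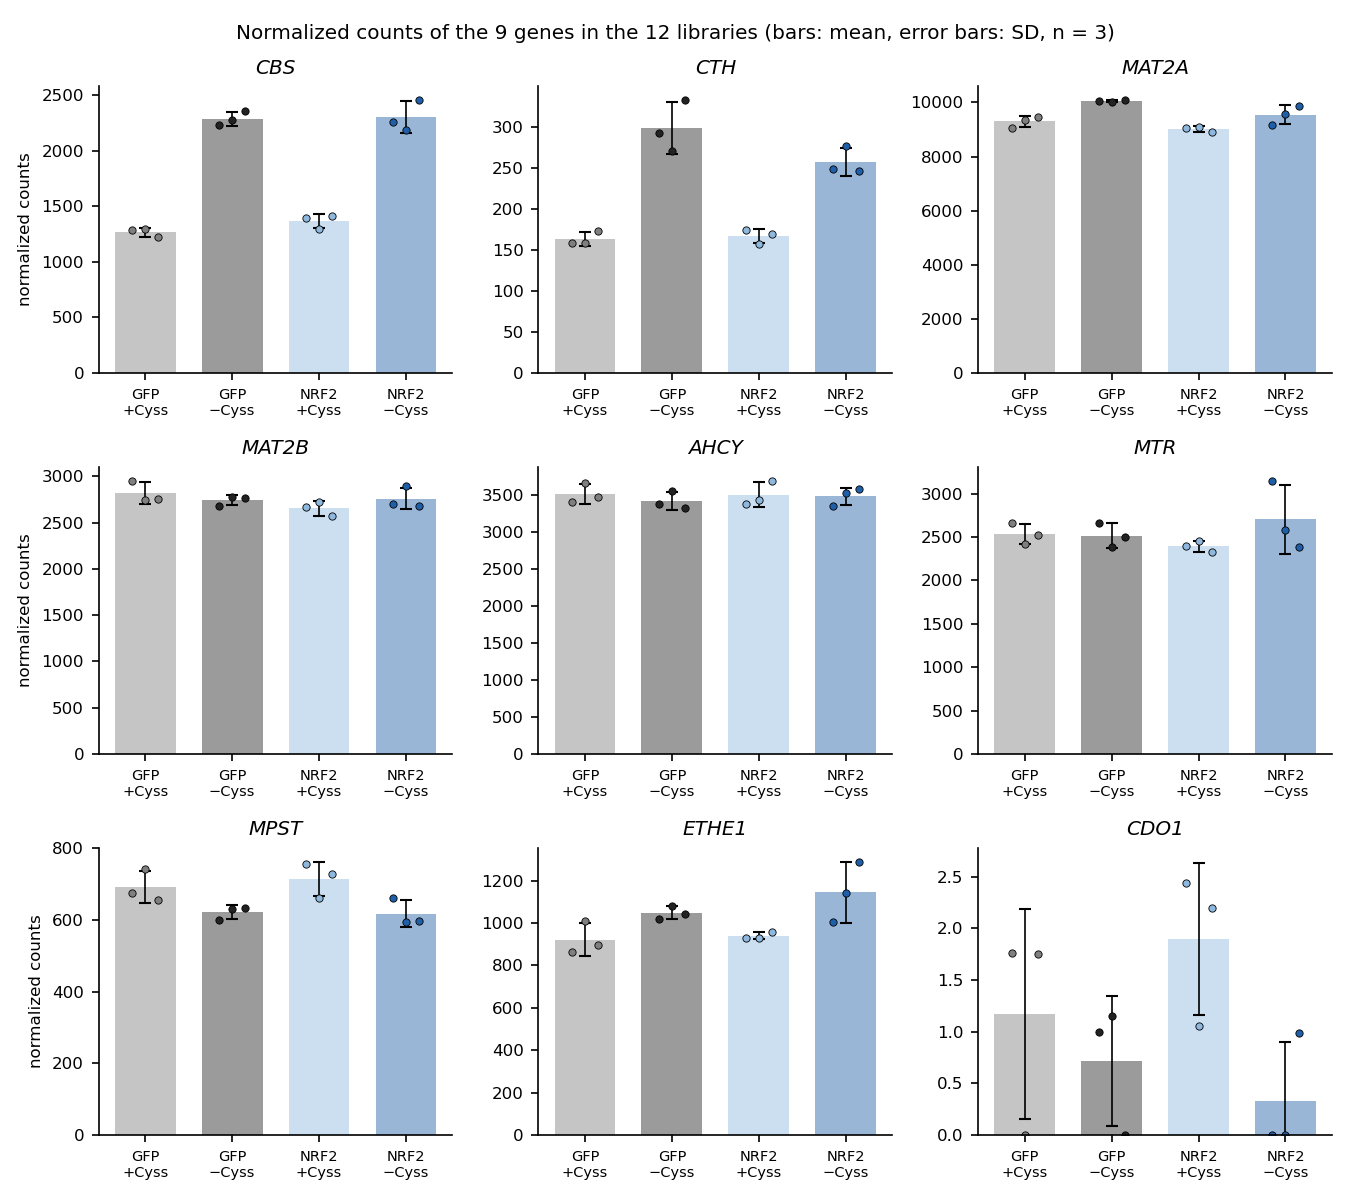
Normalized counts (y axes, from 0) of the 9 genes in the 12 libraries by group (x axes), with bars for group means, error bars for the SD and a point for each library. CBS and CTH sit higher in the 6 libraries without Cyss, the bars of MAT2B and AHCY are nearly level, and CDO1 does not exceed 2.438 normalized counts.

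In GFP cells 2 of the 8 members tested were called higher, which compares with 1.57% of all genes tested, and 0 were called lower, against 0.533%. DESeq2 also called 0 lower, and 1 member, MPST, was lower at an unadjusted p under 0.05. In NRF2 cells 2 of 8 were called higher, against 6.81% of all genes, and 0 lower, against 5.14%. There too DESeq2 called 0 lower and MPST alone was lower at an unadjusted p under 0.05. Of all calls in NRF2 cells 57.0% were of higher genes, a share that fell to 40.1% when counts were scaled by library size only, yet CBS and CTH kept log2FCs of 0.69 and 0.56 under that scaling. The median log2FC over the 8 members was 0.05 in GFP cells and 0.13 in NRF2 cells, beside medians of 0.0015 and -0.01 over all genes tested.

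Of the genes of the methionine cycle, MAT2A encodes the catalytic subunit of the methionine adenosyltransferase of most tissues, and lies on chromosome 2 (85766291 to 85772404, GRCh37). GFP cells had 9070, 9364 and 9454 normalized counts with Cyss and 10050, 10030 and 10100 without. In NRF2 cells it had 9042, 9093 and 8896 with Cyss and 9173, 9588 and 9876 without. The libraries without Cyss were higher in both cell populations with no overlap, but the difference was small, with log2FCs of 0.11 (interval 0.04 to 0.18, adjusted p = 0.0956 by edgeR) and 0.08 (interval -0.01 to 0.18, adjusted p = 0.207). In GFP cells MAT2A was therefore past the threshold on adjusted p and not past that on fold change, and its adjusted p was 0.126 to 0.247 when any 1 of the 6 libraries was left out. Its exons overlap those of GGCX on the other strand over 12.5% of their length. The counting ignored strand, so some reads of this region may have been set aside as ambiguous.

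MAT2B encodes the regulatory subunit of the same enzyme, on chromosome 5 (162930120 to 162946564). Its libraries ranged from 2571 to 2953 normalized counts, and the log2FC without Cyss was -0.04 (interval -0.13 to 0.05) in GFP cells and 0.05 (interval -0.05 to 0.16) in NRF2 cells. AHCY, on chromosome 20 (32868074 to 32899608), encodes the hydrolase that turns S-adenosylhomocysteine into homocysteine, and ranged from 3329 to 3700. Its log2FCs were -0.04 (interval -0.13 to 0.05) and -0.01 (interval -0.11 to 0.10). In both genes the groups with and without Cyss overlapped and each of these intervals stayed within the fold change threshold of 0.32 on either side. Since AHCY has processed pseudogenes, reads that could not be placed at a single locus may be missing from its count.

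MTR, on chromosome 1 (236958560 to 237084578), encodes methionine synthase, which returns homocysteine to methionine and so competes with CBS for it. GFP cells had 2660, 2422 and 2521 normalized counts with Cyss and 2662, 2383 and 2503 without. In NRF2 cells it had 2394, 2459 and 2332 with Cyss and 3149, 2585 and 2382 without. A single library, replicate 1 of NRF2 without Cyss, was above all others. The log2FC was -0.01 (interval -0.12 to 0.10) in GFP cells and 0.17 (interval 0.00 to 0.34, adjusted p = 0.135 by edgeR) in NRF2 cells, and the latter was 0.05 without that library.

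MPST and ETHE1 act after cysteine. MPST, on chromosome 22 (37415676 to 37425862), encodes the sulfurtransferase that takes sulfur from 3-mercaptopyruvate. GFP cells had 677.1, 741.6 and 657.5 normalized counts with Cyss and 601.2, 632.1 and 634.1 without, and in NRF2 cells 755.6, 662.3 and 728 with Cyss and 661.4, 594.8 and 597.4 without. All libraries without Cyss were lower than those with Cyss of the same cells, in NRF2 cells by a margin of less than 1 normalized count (661.4 against 662.3). The log2FC was -0.16 (interval -0.29 to -0.02, adjusted p = 0.194 by edgeR) in GFP cells and -0.21 (interval -0.36 to -0.06, adjusted p = 0.0451) in NRF2 cells. In NRF2 cells MPST thus passed on adjusted p but not on fold change, and its adjusted p was 0.178 without replicate 1 and 0.149 without replicate 3 of NRF2 with Cyss, and 0.155 without replicate 2 of NRF2 without Cyss.

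ETHE1, on chromosome 19 (44010871 to 44031382), encodes the mitochondrial persulfide dioxygenase that oxidises glutathione persulfide. GFP cells had 861.4, 1008 and 897 normalized counts with Cyss and 1021, 1082 and 1042 without, and in NRF2 cells 929.9, 930.7 and 958.3 with Cyss and 1003, 1141 and 1290 without. Libraries without Cyss were again higher with no overlap. The log2FC was 0.18 (interval 0.05 to 0.31, adjusted p = 0.140 by edgeR) in GFP cells and 0.28 (interval 0.12 to 0.45, adjusted p = 0.0149) in NRF2 cells, below the fold change threshold in both. In NRF2 cells the value ran from 0.19 without replicate 3 of NRF2 without Cyss to 0.37 without replicate 1, and in the latter fit ETHE1 was called. Exons of ETHE1 overlap those of ZNF575 on the other strand over 15.0% of their length.

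CDO1, on chromosome 5 (115140430 to 115152356), had from 0 to 2 reads per library and was at 0 in 4 of 12 libraries. Its 12 reads among 403355653 on genes came to 0.0298 CPM, with an exact Poisson interval of 0.0154 to 0.0520 CPM that covers counting error only. It did not reach the minimum mean of 10 normalized counts and was not tested, so 8 of the 9 members passed the filter on low values. A change in CDO1 was not detectable at this depth.

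On adjusted p alone, without a fold change threshold, 3 of 8 members passed in GFP cells (CBS, CTH and MAT2A), compared with 5.92% of all genes. In NRF2 cells 4 of 8 passed (CBS, CTH, ETHE1 and MPST), compared with 29%. Libraries with and without Cyss did not overlap for 5 of 8 members in each cell population, namely CBS, CTH, MAT2A and ETHE1, which were higher without Cyss, and MPST, which was lower. That compares with 23.6% of all genes tested in GFP cells and 37.8% in NRF2 cells.

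Between NRF2 and GFP cells kept with Cyss, 0 of 8 members were called, against 1.56% of all genes in either direction. DESeq2 also called 0, and CBS alone had an unadjusted p under 0.05. CBS was slightly higher in all 3 NRF2 libraries, with a log2FC of 0.11 (interval 0.01 to 0.21, adjusted p = 0.224 by edgeR). Without Cyss 0 of 8 were called, against 10.1% of all genes, again 0 by DESeq2, and only CTH had an unadjusted p under 0.05. The CTH value there was lower for NRF2 cells, with a log2FC of -0.23 (interval -0.44 to -0.02, adjusted p = 0.116 by edgeR) and overlapping libraries, while CBS gave -0.01 (interval -0.12 to 0.11). Without replicate 3 of GFP without Cyss the log2FC of CTH was -0.14 (adjusted p = 0.364, edgeR) and that of CBS 0.02. Of all calls in this comparison 59.4% were of higher genes, or 46.7% when counts were scaled by library size only.

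The response to Cyss deprivation itself was compared between NRF2 and GFP cells as an interaction over all 12 libraries. Here 0 of 8 members passed an adjusted p of 0.1 in edgeR, against 15.1% of all genes, 0 passed in DESeq2, and 0 had an unadjusted p under 0.05. The rise of CBS was smaller in NRF2 cells by 0.10 on the log2 scale, with an interval of the difference, NRF2 minus GFP, from -0.26 to 0.05 (adjusted p = 0.407). For CTH the difference was -0.25 with an interval from -0.52 to 0.03 (adjusted p = 0.251). A response of CTH in NRF2 cells smaller by 0.52, or an equal response, therefore both remained within the interval. Without replicate 3 of GFP without Cyss the difference was -0.16 for CTH (adjusted p = 0.461, edgeR) and -0.08 for CBS. These comparisons share libraries with each other, each group entering more than 1 of them.

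**Figure D2:**
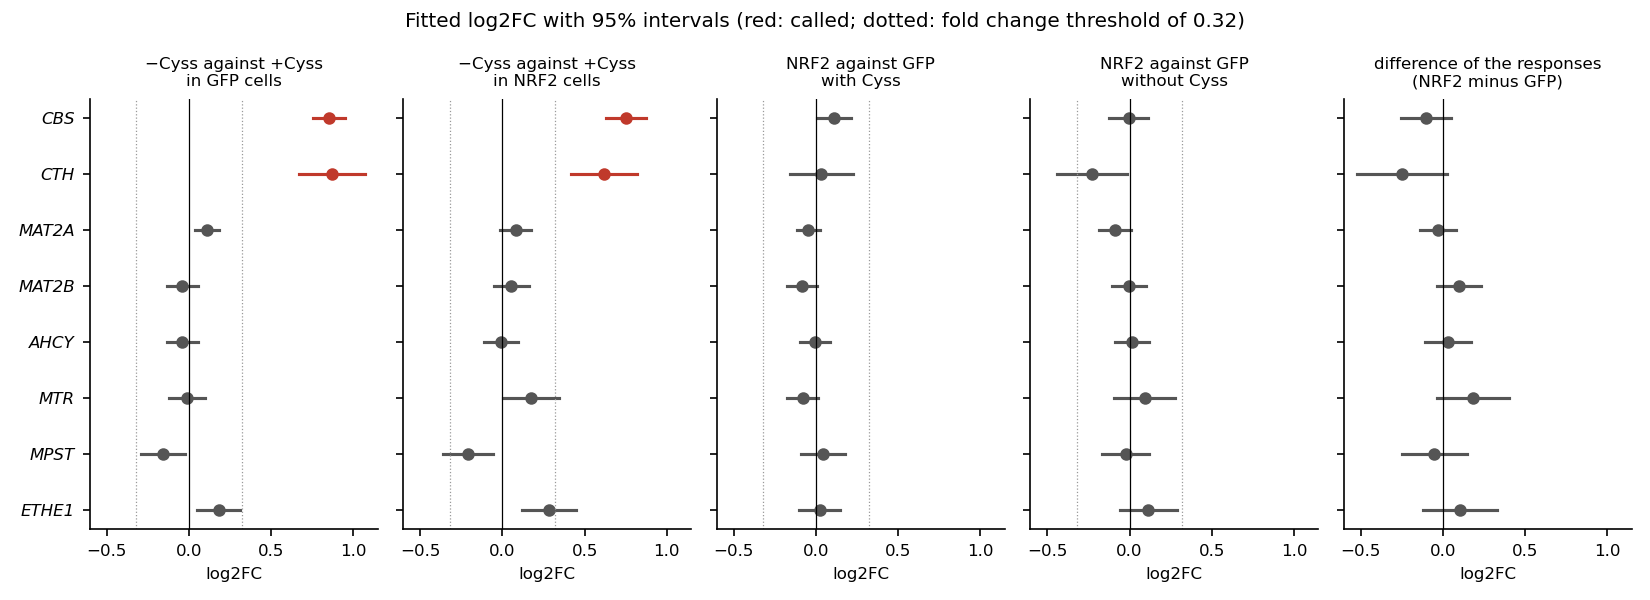
Fitted log2FC (x axes) with 95% intervals for the 8 tested members (y axis) in the 4 comparisons between groups and, at the right, the difference of the Cyss responses between NRF2 and GFP cells. Red marks called genes, and dotted lines mark the fold change threshold of 0.32. CBS and CTH, at 0.62 to 0.87 in the 2 panels on Cyss deprivation, are the only red points.

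To set the members side by side, normalized counts were divided by the length of the canonical transcript and are given per kilobase. In GFP cells with Cyss the order from the top was MAT2A at 3300 ± 71.4 (SD, n = 3), AHCY at 1640 ± 64.7, MAT2B at 1360 ± 57.4, ETHE1 at 1000 ± 83.4, MPST at 513 ± 32.6, CBS at 507 ± 15.9, MTR at 240 ± 11.3, CTH at 78.1 ± 4.08 and CDO1 at 0.748 ± 0.648. All neighbours in this order were separated in every library except MPST and CBS, which overlapped. The last step of the route to cysteine was thus its least abundant mRNA, with MAT2A 42.3 ± 1.72 times the level of CTH per kilobase and CBS 6.51 ± 0.528 times.

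After Cyss deprivation CBS, at 917 ± 24.9 per kilobase in GFP cells and 922 ± 57.0 in NRF2 cells, stood above MPST in every library, whereas CTH, at 143 ± 15.3 and 123 ± 7.96, kept its place below MTR. The level of CBS relative to CTH per kilobase was 6.46 ± 0.562 in GFP cells and 7.53 ± 0.874 in NRF2 cells without Cyss, close to the values with Cyss, 6.51 ± 0.528 and 6.86 ± 0.135. CBS and MTR encode the enzymes at which homocysteine divides between cysteine and methionine. The mRNA level of CBS relative to MTR went from 2.11 ± 0.123 with Cyss to 3.86 ± 0.265 without in GFP cells. In NRF2 cells it went from 2.42 ± 0.168 to 3.66 ± 0.669, with no overlap in either cell population. These are ratios of mRNA, and enzyme amounts and the flow of homocysteine were not tested. The paper reports that cytoplasmic cysteine in this cell line was almost absent after the same time without Cyss. It does not report that measurement for the GFP or NRF2 cells. The order of the members per kilobase depends on the length used. Over the union of all annotated exons MPST fell below MTR, to 102 against 132 per kilobase in GFP cells with Cyss, while CTH and CDO1 stayed last. Without Cyss, CTH lay above MPST on that scale, at 124 against 92.1 in GFP cells, where it overlapped MTR, at 131. On the same scale CBS was above MPST already with Cyss, at 186 against 102 in GFP cells.

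**Figure D3:**
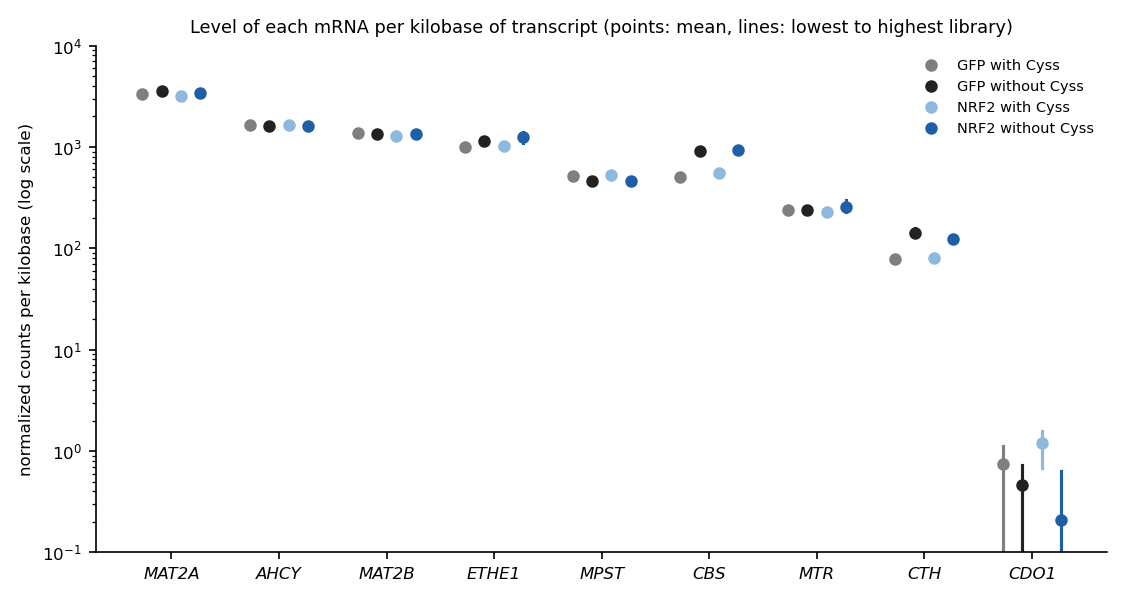
Level per kilobase of canonical transcript (y axis, log scale) of each gene (x axis) in the 4 groups, with a point for the mean and a line from the lowest to the highest library, both cut at 0.1. The 9 genes span from MAT2A at 3200 to 3570 down to CDO1 at 0.211 to 1.21, and CBS and CTH are shifted upwards in both groups without Cyss.

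By Pearson's correlation of log2 normalized counts over the 12 libraries, among 13528 genes, the patterns most like that of CBS were those of TRIB3 (0.997), SESN2 (0.993) and TIMM44 (0.992). For CTH they were MTHFD2P7 (0.975), PSAT1P3 (0.975) and ASNS (0.973). The points are the same 12 libraries in 4 groups, so these values mostly describe the step between media. MTHFD2P7 and PSAT1P3 are named as processed pseudogenes, which share sequence with their parent genes, and their own expression is uncertain. CBS and CTH correlated with each other at 0.945 over the 12 libraries.

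Imported Cyss enters through SLC7A11, the light chain of the cystine and glutamate antiporter, held in the membrane by SLC3A2. SLC7A11 was not called between media. GFP cells had 5834, 4707 and 4888 normalized counts with Cyss and 5061, 4755 and 5245 without, a log2FC of -0.04 (interval -0.19 to 0.11). In NRF2 cells it had 8435, 8141 and 7441 with Cyss and 8525, 8179 and 7014 without, a log2FC of -0.02 (interval -0.16 to 0.12). It was higher in NRF2 than in GFP cells in every library, with log2FCs of 0.64 in both media (adjusted p = 1.45e-05 with and 2.84e-04 without Cyss, edgeR). SLC7A11 was thus called between cell populations and not between media, and CBS and CTH between media and not between cell populations. The exons of SLC7A11 overlap those of SLC7A11-AS1 on the other strand over 8.97% of their length.

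SLC3A2, which also serves other amino acid transporters, rose without Cyss in GFP cells from 18620 ± 937 to 26270 ± 783 (SD, n = 3), a log2FC of 0.50 (adjusted p = 6.45e-06, edgeR). In NRF2 cells it went from 20400 ± 315 to 23790 ± 1700, a log2FC of 0.22 (adjusted p = 0.00586) that did not pass the fold change threshold. The difference between the responses was -0.28 (interval -0.42 to -0.13, adjusted p = 0.0180). Expressed per kilobase, SLC7A11 was 6.85 ± 0.984 times CTH in GFP cells with Cyss and 3.66 ± 0.217 times without. In NRF2 cells SLC7A11 was 10.4 ± 0.864 times CTH with Cyss and 6.67 ± 0.664 times without.

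**Figure D4:**
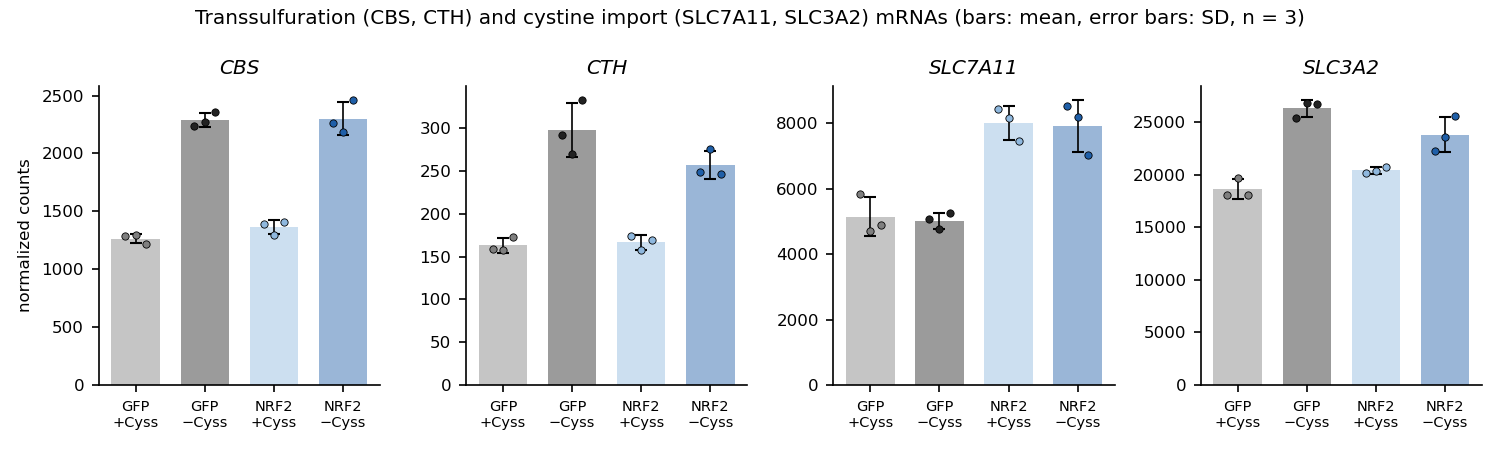
Normalized counts (y axes, from 0) of the transsulfuration genes CBS and CTH and the Cyss import genes SLC7A11 and SLC3A2 by group (x axes), with bars for means, error bars for the SD and a point for each library. SLC7A11 is level between media and higher in NRF2 cells (7014 to 8525 against 4707 to 5834), whereas the lowest CBS value without Cyss, 2184, is above the highest with Cyss, 1411.

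Of 46 further listed genes around these routes 36 were tested. In GFP cells 3 were called without Cyss, all of them higher, beside 1.57% of all genes called higher. In NRF2 cells 3 were called higher and 3 lower, near the shares of all genes, 6.81% and 5.14%. The list of the methionine cycle and remethylation, which holds for example MTRR, AHCYL1 and METTL16, gave 0 calls among 8 tested genes in each of the 5 comparisons by edgeR and by DESeq2, with 2 genes at an unadjusted p under 0.05 in GFP cells and 0 in NRF2 cells without against with Cyss. Its median log2FC was -0.05 in GFP cells and 0.01 in NRF2 cells. Like the members MAT2A, MAT2B, AHCY and MTR, the tested genes of this list thus gave no call. That is near the shares of all genes called for Cyss deprivation. These were 1.57% higher and 0.533% lower in GFP cells and 6.81% and 5.14% in NRF2 cells.

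Among genes of cysteine and sulfide breakdown 1 of 10 was called higher in GFP cells, GOT1, the cytosolic aspartate aminotransferase, which can also turn cysteine into the substrate of MPST. GOT1 went from 1608, 1673 and 1673 normalized counts with Cyss to 2297, 2337 and 2455 without in GFP cells, a log2FC of 0.51 (SE 0.0428, adjusted p = 6.86e-06, edgeR). In NRF2 cells it went from 1443, 1483 and 1509 to 2052, 2261 and 2386, a log2FC of 0.59 (SE 0.0573, adjusted p = 2.87e-06). GOT1 thus rose in both cell populations, while MPST, one step further, had lower values. In NRF2 cells TST, the sulfurtransferase rhodanese, fell by 0.38 (adjusted p = 0.0333), and CSAD, which decarboxylates cysteine sulfinate on the way to taurine, fell by 0.37 (adjusted p = 0.0985). Both calls were fragile, since CSAD was not called by DESeq2 (adjusted p = 0.104) or without any 1 of 5 of the 6 libraries, and TST had an adjusted p of 0.104 without replicate 2 and 0.112 without replicate 3 of NRF2 with Cyss. Mean TST counts went from 140.2 to 108.2 in NRF2 cells and were 111.3 in both media in GFP cells. By the interaction neither gene was called as different between the cell populations (adjusted p = 0.173 for TST and 0.160 for CSAD, edgeR). In this list 1 of 10 genes was called higher and 2 lower in NRF2 cells, beside 6.81% and 5.14% of all genes, and the median log2FC was 0.05 in GFP and -0.09 in NRF2 cells.

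Of the genes that spend or salvage S-adenosylmethionine, NNMT, nicotinamide N-methyltransferase, was the 1 of 8 methyltransferases called in each cell population. The shares of all genes called higher and lower were 1.57% and 0.533% in GFP cells and 6.81% and 5.14% in NRF2 cells. For NRF2 cells 1 call among 8 genes is thus near the shares of all genes. NNMT rose from 1656 ± 67.0 to 2478 ± 94.9 in GFP cells and from 1614 ± 51.6 to 2416 ± 121 in NRF2 cells, with log2FCs of 0.58 in both (adjusted p = 4.57e-06 and 1.23e-06, edgeR). Of 8 genes of polyamine synthesis and methionine salvage, 0 were called in GFP cells, and 1 higher and 1 lower in NRF2 cells. The 0 of 8 in GFP cells is near the shares of all genes given above. There 2 had an unadjusted p under 0.05 and DESeq2 called 0. In NRF2 cells MTAP, the phosphorylase that begins methionine salvage, went from 1204, 1193 and 1136 to 1650, 1675 and 1698, a log2FC of 0.51 (adjusted p = 4.05e-06), and MRI1, an isomerase of the same route, fell by 0.35 (adjusted p = 5.43e-04). The first and a later step of salvage thus moved in opposite directions in NRF2 cells without Cyss. MRI1 was also lower in GFP cells, by 0.19, though not called (adjusted p = 0.159, edgeR). By the interaction its response was not called as different between the cell populations (difference -0.16, adjusted p = 0.260, edgeR).

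**Figure D5:**
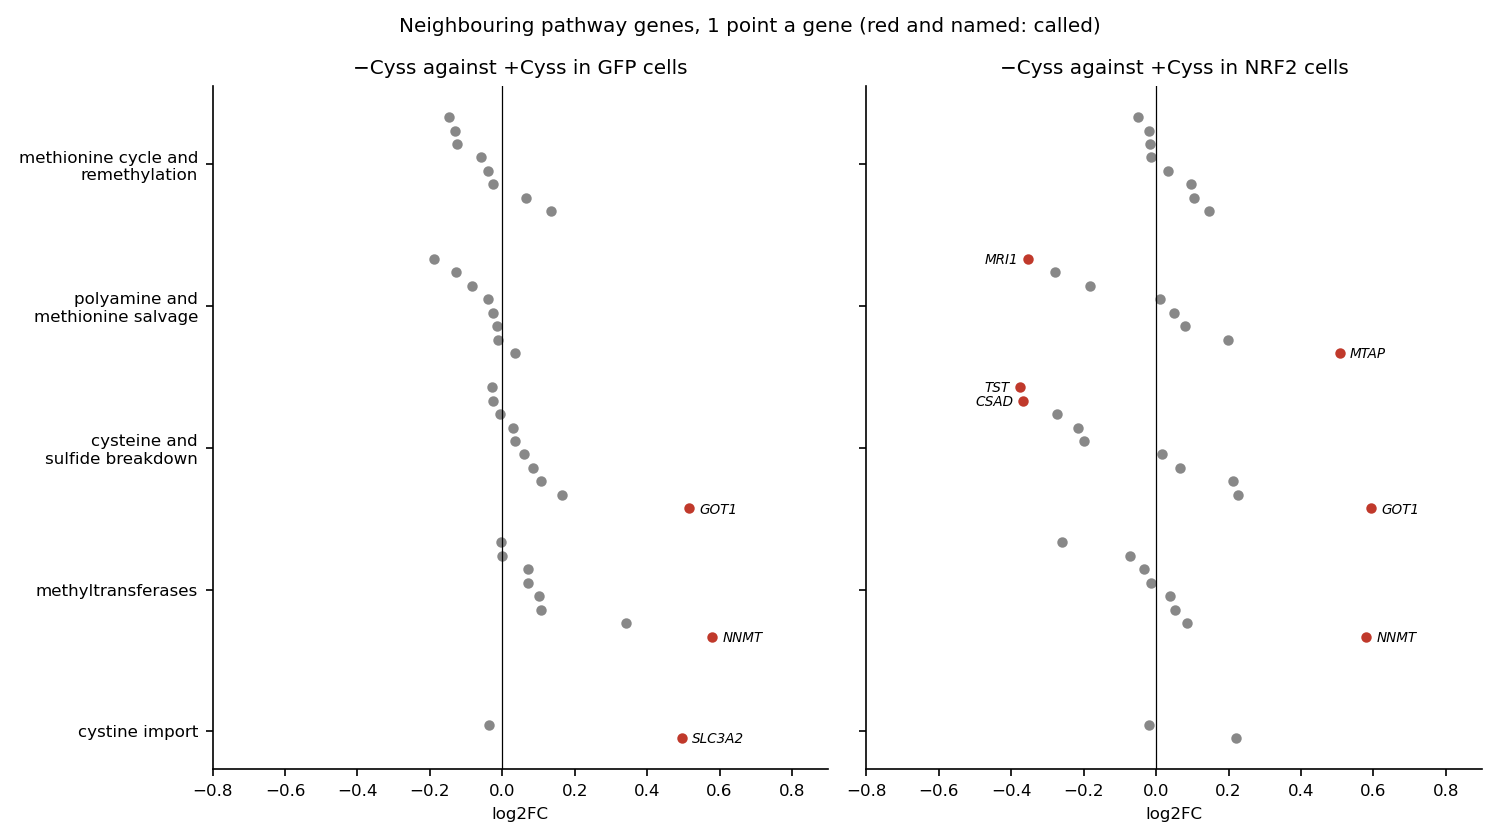
Log2FC without against with Cyss (x axes) of the listed neighbouring genes, 1 point a gene, grouped by list (y axis), in GFP cells at the left and NRF2 cells at the right, with called genes in red and named. GOT1 and NNMT are called higher in both panels at 0.51 to 0.59, and all points of the methionine cycle and remethylation list are grey.

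Between NRF2 and GFP cells, 1 of the 36 listed genes was called with Cyss, SLC7A11, beside 1.56% of all genes. Without Cyss 2 were called, SLC7A11 and MTAP, beside 10.1% of all genes, and these calls were all higher in NRF2 cells. MTAP had a log2FC of 0.45 there (adjusted p = 0.00159, edgeR). The response to Cyss deprivation differed for 6 of 36, 3 in each direction, a share near the 15.1% of all genes.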

How the data were processed

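mRNA libraries from Hs 578T cells (TruSeq RNA v2) had been sequenced single-end. The authors mapped the reads to hg19 with TopHat2 2.1.0 and Bowtie, counted them on exons with HTSeq 0.11.2 with its intersection-nonempty setting and strand ignored. They deposited raw counts per gene symbol, 1 table per library. The annotation used for counting is not given in the sources used here. Counters for unassigned reads, 15.9 to 17.1% of each table, were left out. Genes named as rRNA (523) were removed, which left 55242 genes.

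For each of 4 comparisons the 6 libraries concerned were used. Genes whose normalized counts averaged 10 or more in at least 1 of the 2 groups entered the test, TMM factors were recomputed on them, and edgeR 4.0.16 in R 4.3.3 was run with its quasi-likelihood test and Benjamini-Hochberg adjustment over all genes tested. Calls needed an adjusted p under 0.1 together with a log2FC beyond 0.32 in either direction. The interaction was tested on all 12 libraries at an adjusted p under 0.1. Printed normalized counts use TMM over the 12 libraries, and SDs are over 3 libraries. Replicates differed by more than sampling noise in every pair (chi-square per degree of freedom 2.22 to 13.0). An exact permutation test of 3 against 3 libraries cannot give a p under 0.1 and was not used. DESeq2 1.42.0, other scalings, filters and thresholds, the replicate number as a block and leaving out each library were the alternatives.

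The members, the lists of neighbouring genes and the marker lists were chosen with earlier results of these data known. The rule for named genes was all 9 members, at most 4 called genes per list and comparison, and the 3 genes most like each called member. Positions and transcript lengths are from GENCODE 44 on GRCh37, and promoters from RefSeq on GRCh38.p14, a different build, in which 8 of 9 members had an entry. Plots were drawn with matplotlib.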

Additional observations from a re-analysis of the deposited data

Results flagged for a closer look

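In 6 of the listed neighbouring genes the response to Cyss deprivation differed between NRF2 and GFP cells, by the interaction over 12 libraries in edgeR with an adjusted p under 0.1, where 15.1% of all genes tested passed. The difference, NRF2 minus GFP on the log2 scale, was 0.55 for MTAP (adjusted p = 0.00256), 0.26 for ADO, a thiol dioxygenase (adjusted p = 0.0159), and 0.21 for SRM, spermidine synthase (adjusted p = 0.0402). It was -0.33 for GAMT, a methyltransferase of creatine synthesis (adjusted p = 0.0355), -0.28 for SLC3A2 (adjusted p = 0.0180) and -0.17 for ADI1, a dioxygenase of methionine salvage (adjusted p = 0.0639). In GFP cells the log2FC without Cyss was -0.04 for MTAP, -0.03 for ADO, -0.01 for SRM, 0.07 for GAMT and -0.02 for ADI1, and in NRF2 cells it was 0.51, 0.23, 0.20, -0.26 and -0.18. The call of ADI1 was lost without any 1 of 7 of the 12 libraries. That of SRM was lost without replicate 1 of GFP without Cyss (adjusted p = 0.11) or replicate 2 of NRF2 with Cyss (adjusted p = 0.126). That of GAMT was lost without replicate 2 of GFP without Cyss (adjusted p = 0.103). Over all 21 alternatives, which include these, the call was lost in 9 for ADI1, 3 for SRM and 1 for GAMT.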

How the results depend on the processing

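Of 712 values of members under the alternatives, 707 kept their side of the thresholds, 5 passed them newly and none lost a call or reversed, and 32 values of uncalled members changed sign. CBS and CTH were called under all 17 alternatives in both cell populations, with log2FCs of 0.83 to 0.87 and 0.79 to 0.93 in GFP cells and 0.69 to 0.79 and 0.56 to 0.65 in NRF2 cells. Without a fold change threshold the called genes numbered 1033 for Cyss deprivation in GFP cells, 5012 in NRF2 cells with 4 members among them, 1122 for NRF2 against GFP with Cyss and 4976 without. DESeq2 called 104 genes for NRF2 against GFP with Cyss in place of 272, and leaving out single libraries gave 160 to 307. For the interaction an adjusted p of 0.05 left 1591 of 2669 genes, and leaving out single libraries gave 1395 to 3681 genes and 0 to 1 members, MTR being called without replicate 3 of NRF2 without Cyss (difference 0.27, adjusted p = 0.0498 by edgeR). The cause was not tested. Of 330 values of called listed genes 308 kept their call and 22 lost it. The TMM scaling computed before the filter was added after seeing the data.

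Deviations of same-numbered libraries from their group means correlated at -0.083 to 0.17, so the numbers were not taken as pairs. With the replicate number as a block, 2 members were called in each cell population, 0 in the other comparisons, and 386, 2122, 291, 1904 and 3173 genes in the 5 comparisons.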
